A study of Homo sapiens with 6 samples.

Results

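The RAB, VPS, SNX and CHMP genes encode much of the machinery that moves membrane and cargo between endosomes, the Golgi, the lysosome and the cell surface. Members were chosen by name: a gene listed as protein-coding was taken when its symbol was RAB, VPS, SNX or CHMP followed by a number and, for all but SNX, an optional letter. This gave 125 of the 13617 protein-coding genes listed, of which 54 were RAB, 32 VPS, 28 SNX and 11 CHMP genes. The rule uses names alone, although it was set with earlier results of these data known. The libraries were made from total RNA of H1650, an established human lung adenocarcinoma line. Of the 6 libraries, 3 are labelled control with a wild type genotype and 3 shSETD2, a knockdown of SETD2 by short hairpin RNA, with libraries numbered from 1 to 3 in each group. SETD2 is the histone methyltransferase that trimethylates lysine 36 of histone H3. Lentivirus was used to make stable lines in the study, and its text names 3 hairpin constructs, but neither that text nor the labels say whether a number marks a construct or a replicate. Nothing says that libraries of a group came from separate cultures, so the p-values measure only the spread between these libraries, which may be technical.

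RAB proteins are small GTPases that switch between a GDP-bound and a GTP-bound form, and each one marks a set of membranes and recruits effectors to them. VPS proteins, named after yeast mutants with faulty sorting to the vacuole, are subunits of several complexes: the retromer retrieves receptors from endosomes, the HOPS and CORVET complexes tether endosomes before fusion, the GARP and EARP complexes tether carriers at the Golgi and recycling endosomes, and the ESCRT complexes sort ubiquitinated receptors into vesicles inside the endosome. CHMP proteins form the filaments of ESCRT-III, which VPS4 takes apart, and SNX proteins bind endosomal phosphoinositides through a PX domain, with some of them bending membrane through a BAR domain. In cancer cells these routes set how long receptors such as EGFR stay at the surface or signal from endosomes.

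Values are FPKM, which scale the fragments of a gene to its length and to the mapped reads of the library, so levels can be compared between genes. SETD2 itself read 18.0, 10.2 and 17.6 FPKM in the control libraries and 8.97, 8.09 and 12.2 FPKM in the shSETD2 libraries. The groups overlapped, and the log2 fold change was -0.58 (standard error 0.24, limma adjusted p = 0.0641), so the targeted gene did not separate the groups and they are called by their labels throughout. Without control library 2 the log2 fold change of SETD2 was -0.83 (adjusted p = 0.00666), and without shSETD2 library 3 it was -0.73 (adjusted p = 0.0420). Under median ratio scaling, explained below, it was -0.25 (adjusted p = 0.377). Across genes, Pearson's r of log2(FPKM + 1) was 0.982 to 0.990 between libraries of a group and 0.701 to 0.707 between groups. Markers of other cell types moved with the groups. Of 10 lung epithelial markers only NKX2-1 was listed, at 1.44 to 1.80 FPKM in the control libraries and at 0 in every shSETD2 library. A list of 8 epithelial markers, of which 7 were listed, summed to 14.1 to 16.0 FPKM in the control and 402.1 to 454.5 FPKM in the shSETD2 libraries. Keratins carried this sum, with group means of 10.04 and 254.6 FPKM for KRT18, 2.86 and 93.9 FPKM for KRT8 and 0.0208 and 81.9 FPKM for KRT7, while CDH1 (1.27 and 0.0120 FPKM) and EPCAM (0.710 and 0.220 FPKM) were lower in every shSETD2 library. All 6 mesenchymal markers were listed and summed to 107.3 to 122.0 against 169.7 to 180.0 FPKM. VIM (66.5 and 132.4 FPKM) and FN1 (6.37 and 14.0 FPKM) carried the higher sum, and SNAI2 (14.3 and 0.0107 FPKM) and ZEB2 (1.99 and 0.656 FPKM) were lower. The part of these differences in the results that follow was not tested. FPKM is relative to all RNA of a library, so fewer cells of a type and less RNA per cell cannot be told apart.

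Most of the trafficking genes were measured well above the low end of the table. Of the 125 members, 105 had at least 1 FPKM and 22 at least 10 FPKM in all 6 libraries, and 4 were at 0 in at least 1 library. The 121 members with a mean of at least 0.5 FPKM over the 6 libraries were tested. The 4 members under this minimum were RAB6C, RAB40A, SNX22 and SNX32, and each of them was lower in every shSETD2 library than in every control library. RAB42, RAB27B and RAB19 passed the minimum through the shSETD2 libraries alone, and RAB39A and RAB9B through the control libraries alone.

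More members were higher than lower in the shSETD2 libraries, while among all genes the reverse held. Differences were called at an adjusted p under 0.05 in limma's moderated test on log2(FPKM + 1), fitted over all 14068 genes tested, a scale that understates the change of low genes. With 3 libraries against 3, an exact permutation test of a single gene cannot give a p under 0.1, so the calls rest on this model. Of the 121 members tested, 53 rose (43.8%) and 34 fell (28.1%), against 26.8% and 51.8% of all genes tested. The counts include RAB42, RAB27B, RAB19, RAB39A and RAB9B, which had to differ, and the shares of all genes include such genes too. Either way, 71.9% of the members and 78.6% of all genes were called, so the members were not called more often than genes in general. Their median log2 fold change was 0.16, and that of all genes was -0.29. The groups did not overlap for 53 members that were higher and 36 that were lower, against 27.9% and 53% of all genes, or 80.9% of all genes either way. Under an alternative scaling, in which each library is divided by the median over genes of its ratio to the geometric mean of the libraries (median ratio scaling), the median of all genes was -0.01. This scaling gave 64 members higher and 22 lower, so that 74.4% of the called members were higher in place of 60.9%, and 49.6% of all called genes in place of 34.1%.

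**Figure D1:**
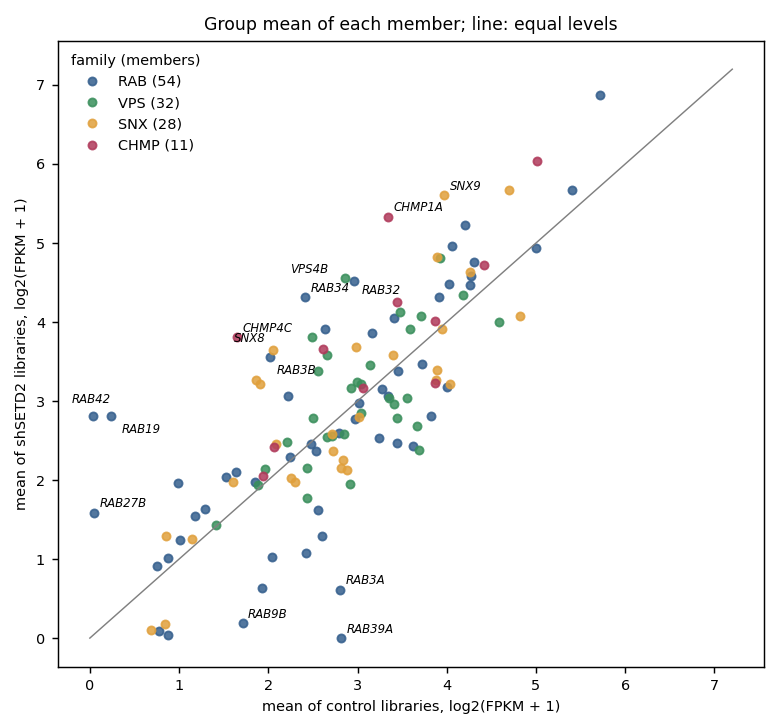
Mean level of each of the 125 members, as log2(FPKM + 1), in the 3 control libraries (x axis) and the 3 shSETD2 libraries (y axis), colored by family, with the line of equal levels. CHMP genes lie on or above the line except CHMP2B, and RAB39A, RAB42 and RAB27B lie near an axis.

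The families differed in their counts, while among all genes tested 26.8% rose and 51.8% fell. The share called either way was 69.2% for RAB, 75% for VPS, 76.9% for SNX and 63.6% for CHMP genes. For all genes it was 78.6%. Of 52 RAB genes tested, 22 rose and 14 fell (median log2 fold change 0.18). Of 32 VPS genes, 14 rose and 10 fell (median 0.10), and of 26 SNX genes 10 rose and 10 fell (median 0.04). Of 11 CHMP genes, 7 rose and 0 fell (median 0.35). By summed level, the RAB genes read 462.6 ± 5.97 FPKM in the control and 608.1 ± 14.1 FPKM in the shSETD2 libraries (SD, n = 3 each), a ratio of 1.31. Sums of the VPS genes were 255.5 ± 5.56 and 283.0 ± 5.35 FPKM, a ratio of 1.11, and those of the SNX genes 234.4 ± 7.19 and 298.4 ± 9.70 FPKM, a ratio of 1.27. The CHMP sum moved from 118.5 ± 8.64 to 211.1 ± 14.5 FPKM, a ratio of 1.78. In each family the 3 shSETD2 sums lay above the 3 control sums. Single abundant genes weigh heavily in such sums. Control and shSETD2 means were 51.5 and 116.0 FPKM for RAB1B, 14.7 and 47.6 for SNX9 and 25.0 and 49.8 for SNX3. For CHMP4B they were 31.2 and 65.0 FPKM and for CHMP1A 9.14 and 39.2 FPKM. SNX5, also abundant, went the other way, from 27.2 to 15.8 FPKM. A log2 fold change beyond 1 with a call was reached by 18 members that were higher and 9 that were lower, of which 8 and 8 were RAB genes, while 11.2% of all genes were that much higher and 18.7% that much lower. These RAB genes include RAB42, RAB19 and RAB27B, higher, and RAB39A and RAB9B, lower. They passed the minimum through 1 group alone and had to differ, and they are also in the RAB counts above.

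**Figure D2:**
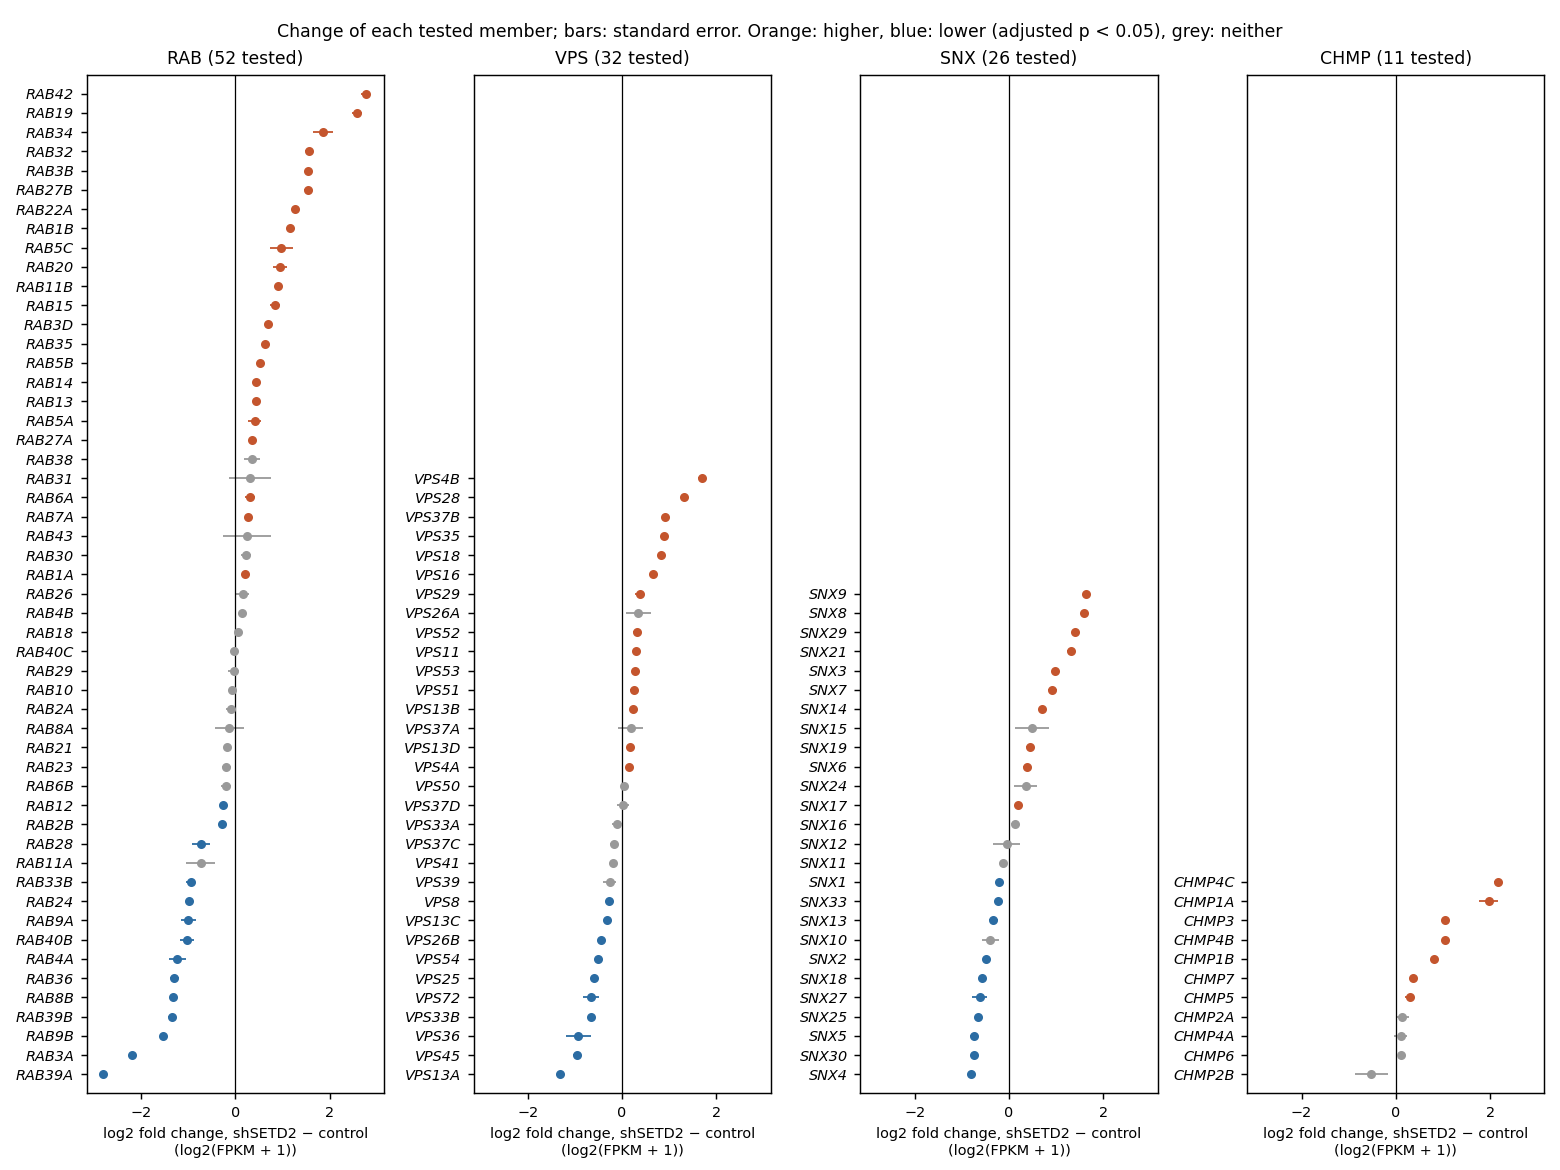
Log2 fold change (shSETD2 minus control, on log2(FPKM + 1)) of each tested member, by family, with bars for the standard error. Orange points were higher and blue points lower at an adjusted p under 0.05, and grey points neither. CHMP has no blue point, and RAB spans the widest range, from -2.81 for RAB39A to 2.77 for RAB42.

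The widest changes, of RAB39A, RAB42 and RAB19, were those of RAB genes that were near 0 in one group. These genes, RAB9B and RAB27B passed the minimum through 1 group alone, so they had to differ. Their p-values are given for completeness and are not separate evidence. RAB39A, which acts in the traffic of endosomes and phagosomes, lies on the plus strand of chromosome 11 (GRCh37, 107799229 to 107834208). It read 5.99, 5.89 and 6.20 FPKM in the control libraries and was listed at 0 in all 3 shSETD2 libraries, so no ratio is given (adjusted p = 6.5e-08 in limma). Its relative RAB39B, on chromosome X, read 3.90, 4.97 and 4.17 FPKM in the control and 1.04, 1.19 and 1.09 FPKM in the shSETD2 libraries (log2 fold change -1.34, SE 0.09, adjusted p = 1.44e-05). Both RAB39 genes thus fell, one of them to a listed 0. RAB9B, on the minus strand of chromosome X (103077252 to 103087158), is a relative of the RAB9A that returns mannose 6-phosphate receptors from late endosomes to the Golgi. Its levels were 2.46, 2.24 and 2.14 FPKM in the control and 0.171, 0.143 and 0.105 FPKM in the shSETD2 libraries (log2 fold change -1.52, SE 0.06, adjusted p = 1.7e-06). RAB42, on the plus strand of chromosome 1 (28918712 to 28921955), showed the opposite pattern. It was at 0.0819, 0 and 0 FPKM in the control and at 6.43, 5.07 and 6.54 FPKM in the shSETD2 libraries (adjusted p = 9.72e-07). RAB19, on the plus strand of chromosome 7 (140103843 to 140126050), read 0, 0.227 and 0.310 FPKM against 6.04, 6.23 and 5.69 FPKM (adjusted p = 2e-06). RAB27B, a GTPase of regulated and exosome secretion, read 0.0398, 0.0621 and 0 FPKM in the control and 1.77, 2.18 and 2.05 FPKM in the shSETD2 libraries (adjusted p = 2.94e-06). These 3 genes were thus over 1 FPKM in each shSETD2 library and under 0.5 FPKM in each control library.

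Promoter windows are shown for RAB39A and RAB9B, which passed the minimum through the control libraries alone, and for RAB42 and RAB19, which passed it through the shSETD2 libraries alone. They run from 250 bases before to 50 bases after the start of the transcript, 5′ to 3′ on the gene's strand, and come from RefSeq (GRCh38.p14), with positions found by exact match in GRCh37. Capitals mark CpG dinucleotides, the sites of DNA methylation in human cells. The window of RAB39A is chr11:107798924-107799223 on the plus strand, that of RAB9B chrX:103087138-103087437 on the minus strand, that of RAB42 chr1:28918527-28918826 on the plus strand and that of RAB19 chr7:140103608-140103907 on the plus strand.
RAB39A: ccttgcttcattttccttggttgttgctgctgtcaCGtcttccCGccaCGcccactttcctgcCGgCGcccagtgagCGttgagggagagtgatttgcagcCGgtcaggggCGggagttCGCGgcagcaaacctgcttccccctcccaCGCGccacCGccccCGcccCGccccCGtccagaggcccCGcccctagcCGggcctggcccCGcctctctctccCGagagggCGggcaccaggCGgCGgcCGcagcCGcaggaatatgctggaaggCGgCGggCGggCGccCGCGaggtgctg
RAB9B: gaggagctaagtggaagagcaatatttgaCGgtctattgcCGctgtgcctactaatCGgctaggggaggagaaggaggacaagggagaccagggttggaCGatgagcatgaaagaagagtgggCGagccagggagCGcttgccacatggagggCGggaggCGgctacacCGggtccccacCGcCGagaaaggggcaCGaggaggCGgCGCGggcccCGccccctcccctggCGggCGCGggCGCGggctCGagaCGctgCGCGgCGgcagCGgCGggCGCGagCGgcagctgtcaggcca
RAB42: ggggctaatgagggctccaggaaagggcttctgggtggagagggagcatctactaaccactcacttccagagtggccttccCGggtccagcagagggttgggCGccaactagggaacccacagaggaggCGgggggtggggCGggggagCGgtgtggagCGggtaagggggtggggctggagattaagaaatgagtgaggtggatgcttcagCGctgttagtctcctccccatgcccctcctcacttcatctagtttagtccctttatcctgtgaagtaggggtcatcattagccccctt
RAB19: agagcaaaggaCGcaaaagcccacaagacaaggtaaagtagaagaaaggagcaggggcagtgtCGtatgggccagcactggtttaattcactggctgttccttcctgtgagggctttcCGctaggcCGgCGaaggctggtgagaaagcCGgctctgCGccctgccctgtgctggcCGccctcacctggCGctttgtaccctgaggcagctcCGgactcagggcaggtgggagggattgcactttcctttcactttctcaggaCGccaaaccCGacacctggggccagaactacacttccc
The RAB39A window holds 31 CpG sites, with an observed over expected ratio of 0.804 and a GC content of 72%. That of RAB9B also holds 31, with a ratio of 0.915 and a GC content of 69%. The RAB42 window has 7 CpG sites (ratio 0.278, GC content 59.3%) and the RAB19 window 12 (ratio 0.460, GC content 59%). RAB27B, also higher in the shSETD2 libraries, has windows with ratios of 0.309 and 0.656. For RAB40A, RAB6C and SNX22, lower there but under the minimum, the ratios are 0.273, 1.15 and 0.873. Whether base composition goes with direction was not tested. A RefSeq window was found for 96 members, with 130 windows in all. Their median CpG ratio was 0.829, against 0.812 for the 15316 windows of listed protein-coding genes, and 17.7% of the member windows against 24.3% of all windows were under 0.6. Searched on both strands, the E-box core CACGTG, bound by the lysosomal regulator TFEB among others, was in 11.5% of member windows and 9.36% of all windows, or in at least 1 window of 14.6% of the 96 members and 12.7% of all genes with a window. The AP-1 motif TGANTCA, which does not overlap it, was in 10.8% against 5.20%, but the 14 member windows that hold it belong to 9 genes, some with several windows, and by gene the shares were 9.38% and 6.97%. None of the 4 windows shown holds either motif.

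Of 13 RAB genes of exocytosis and polarised transport tested, 5 rose (38.5%) and 4 fell (30.8%), against 26.8% and 51.8% of all genes. RAB27B is among those that rose, and it had to differ, since it passed the minimum through the shSETD2 libraries alone. RAB3A, which acts in regulated secretion of vesicles in neurons and endocrine cells, read 5.83, 5.57 and 6.52 FPKM in the control and 0.552, 0.488 and 0.541 FPKM in the shSETD2 libraries, a level 11.3 times lower (log2 fold change -2.19, SE 0.07, adjusted p = 5.55e-07). RAB3B, another secretory RAB3, read 2.83, 3.15 and 3.14 FPKM against 10.6, 11.0 and 10.6 FPKM, a ratio of 3.53 (1.54, SE 0.05, adjusted p = 8.97e-07). RAB3D, found on secretory granules, rose from 7.97 ± 0.108 to 13.5 ± 0.107 FPKM (SD, n = 3 each). Within the RAB3 genes, the share of RAB3A in their summed FPKM thus went from 35.2% to 2.13% and that of RAB3B from 17.9% to 43.3%. RAB8B, a paralog of the RAB8A that carries membrane to cilia and the surface, read 4.95, 5.30 and 5.02 FPKM in the control and 1.30, 1.49 and 1.55 FPKM in the shSETD2 libraries (log2 fold change -1.32, SE 0.06, adjusted p = 3.43e-06). RAB8A read 5.50, 10.4 and 10.2 FPKM against 11.2, 5.69 and 6.86 FPKM, with overlapping groups. RAB13, of tight junction traffic, rose by 0.45 and RAB27A, the relative of RAB27B on melanosomes and lytic granules, by 0.36 on the log2 scale. RAB28 fell by 0.73, though not past the threshold with median ratio scaling (adjusted p = 0.0791). RAB12, which acts in transferrin receptor degradation, fell by 0.26 on the log2 scale with the deposited values but lay at 0.07 with median ratio scaling. RAB10, among the most abundant RAB genes, was at 31.1 ± 1.18 and 29.8 ± 2.37 FPKM (SD, n = 3 each), with overlapping groups and no call. Scaling moved RAB10 across the threshold in opposite directions, to -0.29 with quantile normalization (adjusted p = 0.00637) and to 0.28 with median ratio scaling (adjusted p = 0.00595).

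**Figure D3:**
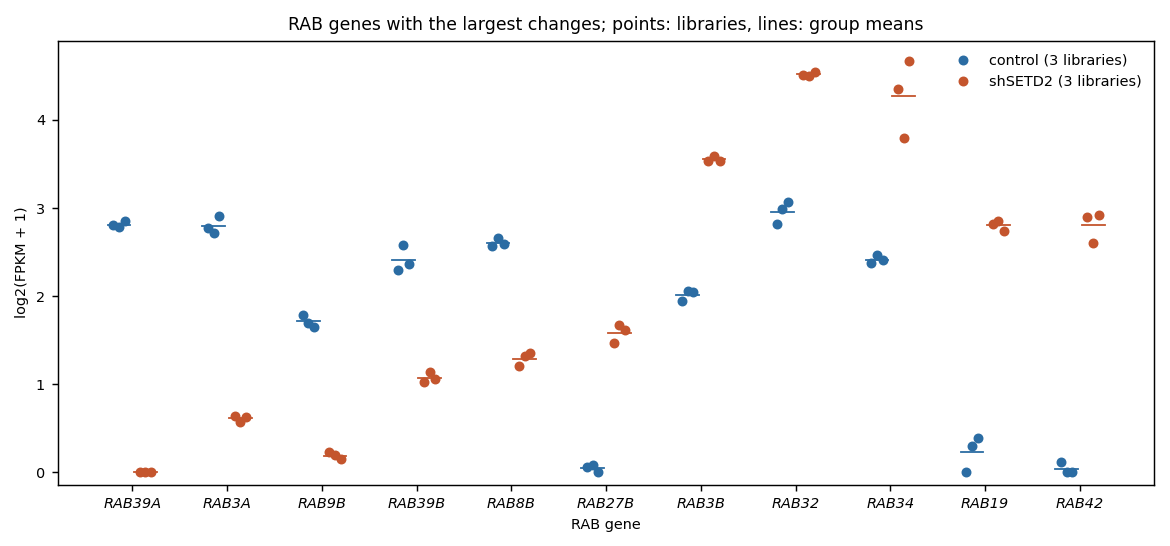
Levels of 11 RAB genes with the largest changes, as log2(FPKM + 1), in each of the 3 control (blue) and 3 shSETD2 (orange) libraries, with a line at each group mean. The groups do not overlap for any of the 11. RAB39A is at 0 in all shSETD2 libraries, and RAB27B, RAB19 and RAB42 are near 0 in the control libraries.

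Of 9 early endosome RAB genes tested, 5 rose (55.6%) and 1 fell (11.1%), against 26.8% and 51.8% of all genes. RAB22A, which acts in sorting at early and recycling endosomes, read 5.11, 5.38 and 5.13 FPKM in the control and 13.3, 15.5 and 13.2 FPKM in the shSETD2 libraries (log2 fold change 1.27, SE 0.07, adjusted p = 6.57e-06). It lies on chromosome 20, where the 372 genes tested had a median log2 fold change of 0.40 and 57.3% were called higher. RAB5 drives the fusion of early endosomes, and its 3 genes were each called higher. RAB5C, the most abundant of them in both groups, read 17.0, 19.5 and 16.0 FPKM in the control and 39.8, 46.3 and 23.5 FPKM in the shSETD2 libraries, where library 3 stood well below the other two (log2 fold change 0.97, SE 0.24, adjusted p = 0.00937). Without that library its log2 fold change was 1.25. RAB5B rose from 1.87 ± 0.196 to 3.12 ± 0.171 FPKM (SD, n = 3 each). RAB5A read 11.2, 15.8 and 15.3 FPKM against 17.7, 21.1 and 17.8 FPKM (0.41, SE 0.14, adjusted p = 0.0321), and its call was lost whichever shSETD2 library was left out, with adjusted p from 0.0520 to 0.0998, and under quantile normalization (adjusted p = 0.0647). RAB20, of phagosome and endosome maturation, rose by 0.96 on the log2 scale. RAB4A, which returns receptors from early endosomes to the surface, was the member of this group that fell, from 11.9, 11.1 and 11.1 to 3.26, 6.02 and 3.91 FPKM (log2 fold change -1.23, SE 0.18, adjusted p = 0.000746). RAB4B read 0.919, 0.806 and 0.766 FPKM against 1.12, 0.938 and 1.02 FPKM and was not called (adjusted p = 0.0764), but was called higher with quantile (adjusted p = 1.61e-04) and median ratio scaling (adjusted p = 0.00388). RAB31 was not called either, and control library 1 at 5.48 FPKM stood above the other control libraries at 1.31 and 1.08 FPKM and above the shSETD2 libraries at 2.32, 3.97 and 2.54 FPKM. Without that control library RAB31 was higher in the shSETD2 libraries, by 0.83 on the log2 scale (adjusted p = 0.0113).

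Of 5 RAB genes of recycling endosomes, 4 rose (80%), against 26.8% of all genes. The share called either way, also 80%, was near the 78.6% of all genes. RAB11B read 14.8, 15.3 and 16.9 FPKM in the control and 30.0, 29.9 and 30.9 FPKM in the shSETD2 libraries (log2 fold change 0.91, SE 0.06, adjusted p = 1.09e-05). RAB11A, the better known GTPase of the recycling endosome, read 23.9, 10.8 and 10.3 FPKM against 9.20, 7.80 and 7.09 FPKM. The groups of RAB11A did not overlap, but control library 1 stood far above its fellows and the difference was not called (-0.73, SE 0.31, adjusted p = 0.0661). Without control library 1 the log2 fold change of RAB11A was -0.37 (adjusted p = 0.0276), and without control library 3 it was -0.93 (adjusted p = 0.0443). RAB15 rose by 0.85, RAB35, which returns cargo from endosomes to the surface, by 0.64 and RAB14, of traffic between the Golgi and endosomes, by 0.45 on the log2 scale.

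All 5 RAB genes of late endosomes and lysosomes were called, 2 higher (40%) and 3 lower (60%), against 26.8% and 51.8% of all genes. RAB42 among the higher and RAB9B among the lower passed the minimum through 1 group alone, so they had to differ. RAB7A, which directs late endosomes to fuse with lysosomes, was the second most abundant RAB gene in both groups. It read 42.3, 39.5 and 42.7 FPKM in the control and 51.1, 50.5 and 48.6 FPKM in the shSETD2 libraries (log2 fold change 0.27, SE 0.04, adjusted p = 0.00138), but 0.01 with no call under quantile normalization (adjusted p = 0.831). RAB9A read 16.9, 11.6 and 10.9 FPKM against 6.11, 6.30 and 5.55 FPKM (-0.99, SE 0.16, adjusted p = 0.00115), so both RAB9 genes fell. RAB24, linked to autophagy, went from 9.91 ± 0.797 to 4.55 ± 0.243 FPKM (SD, n = 3 each), and 44.8% of its exon bases are shared with MXD3 on the same strand, so fragments of these genes may be mixed. RAB42 completes this group. Of 3 RAB genes of melanosomes and lysosome-related organelles, RAB32 rose, from 6.07, 6.92 and 7.39 to 21.8, 21.6 and 22.4 FPKM (1.56, SE 0.07, adjusted p = 2.54e-06). RAB38 and RAB29 were not called (adjusted p = 0.0993 and 0.791), although RAB38 was called higher with quantile (adjusted p = 0.00958) and median ratio scaling (adjusted p = 0.0191).

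In the endoplasmic reticulum and Golgi group, 5 of 15 RAB genes tested rose and 5 fell (33.3% each), against 26.8% and 51.8% of all genes. RAB39A and RAB39B, described above, were placed in this group and are among those that fell, with RAB36, RAB33B and RAB2B. RAB19 is among those that rose. RAB39A and RAB19 passed the minimum through 1 group alone, so they had to differ. RAB1B, of traffic from the endoplasmic reticulum to the Golgi, was the most abundant of all members in both groups. It read 49.1, 54.7 and 50.5 FPKM in the control and 117.9, 108.0 and 122.0 FPKM in the shSETD2 libraries (log2 fold change 1.16, SE 0.06, adjusted p = 5.66e-06). The difference between its group means was larger than the RAB1A level itself in either group. RAB1A, its paralog in the same step, moved less, from 18.2 ± 0.238 to 21.1 ± 0.306 FPKM (SD, n = 3 each), and lost its call under quantile normalization (adjusted p = 0.118). RAB34, which acts at the Golgi and in the first steps of cilium formation, read 4.18, 4.51 and 4.31 FPKM against 19.4, 12.9 and 24.4 FPKM (1.86, SE 0.21, adjusted p = 2.0e-04), with a wide spread among the shSETD2 libraries that still left the groups apart. RAB36 fell from 2.82 ± 0.460 to 0.555 ± 0.0599 FPKM and RAB33B, a Golgi and autophagy RAB, from 4.89 ± 0.0628 to 2.07 ± 0.373 FPKM (SD, n = 3 each). RAB6A, of retrograde Golgi traffic, rose by 0.30 on the log2 scale with overlapping groups, and 13.9% of its 50-base exon windows are also found in RAB6C. The call of RAB6A was lost under quantile normalization (adjusted p = 0.181) and without control library 1 or 2 or shSETD2 library 2 or 3 (adjusted p from 0.0829 to 0.108). RAB2B fell by 0.28 on the log2 scale with the deposited values but lay at 0.04 with median ratio scaling. RAB43 read 2.36, 1.87 and 2.12 FPKM in the control and 4.57, 4.79 and 0.548 FPKM in the shSETD2 libraries. It was not called with all 6 libraries (0.24, SE 0.51, adjusted p = 0.676) but was higher by 0.87 without shSETD2 library 3 (adjusted p = 4.13e-04), and 79.3% of its exon bases are shared with the readthrough gene ISY1-RAB43. RAB40 proteins are adaptors of a ubiquitin ligase, and of their 2 genes tested RAB40B fell by 1.02 on the log2 scale while RAB40C was not called, except as higher with median ratio scaling (adjusted p = 0.0144).

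Relatives that differ by a letter did not always move together. Of 20 sets of such paralogs, 8 had a member whose share of the summed FPKM of its set moved by at least 20 percentage points between the group means. RAB39B gained 58.2 points from RAB39A, and RAB27B gained 48.7 points from RAB27A. In the RAB3 set the share of RAB3A fell by 33.0 points and that of RAB3B grew by 25.4. RAB40C gained 27.5 points, although its own level was 4.57 ± 0.444 and 4.48 ± 0.235 FPKM (SD, n = 3 each), since RAB40B and RAB40A were lower. VPS4B gained 27.1 points from VPS4A, RAB11B 26.1 from RAB11A, RAB8A 21.5 from RAB8B and CHMP1A 20.2 from CHMP1B. Sequence shared by paralogs was small in these sets. Exact 50-base windows of exons found in another member of the set made up more than 2% only for RAB6A and RAB6C.

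**Figure D4:**
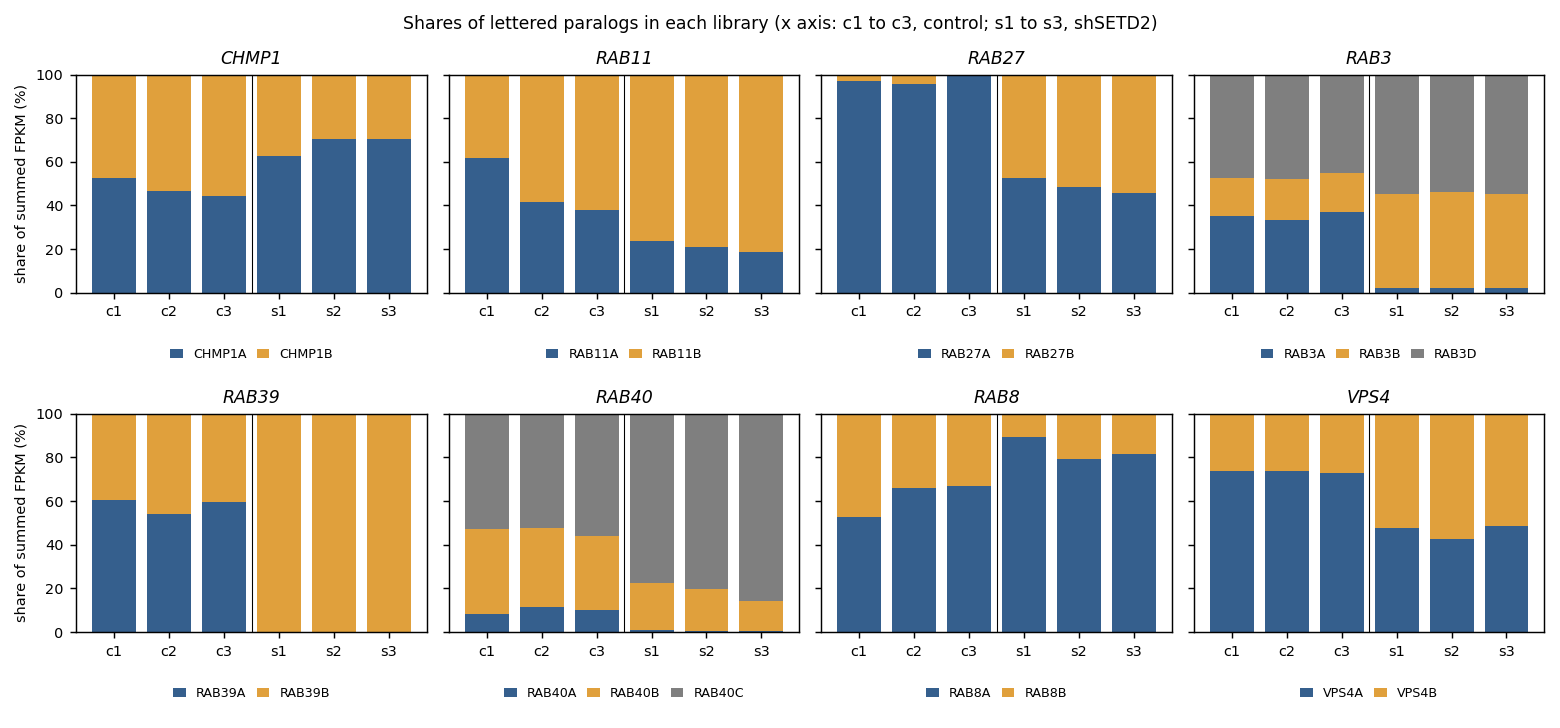
Share of each gene in the summed FPKM of its set (%), as stacked bars for control libraries 1 to 3 (c1 to c3) and shSETD2 libraries 1 to 3 (s1 to s3), in the 8 sets where a share moved by at least 20 points. The RAB39 bars are all RAB39B in the shSETD2 libraries, and RAB11A is highest in control library 1.

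Among the VPS genes, the retromer subunits did not move together. Of 4 genes, 2 rose (50%) and 1 fell (25%), against 26.8% and 51.8% of all genes. VPS35, the core of the cargo-selective trimer, read 13.8, 14.6 and 14.1 FPKM in the control and 26.2, 28.1 and 26.7 FPKM in the shSETD2 libraries (log2 fold change 0.88, SE 0.04, adjusted p = 4.49e-06). VPS29 rose from 12.1 ± 1.50 to 15.9 ± 0.761 FPKM (SD, n = 3 each). The third subunit comes in alternative forms: VPS26B fell from 9.64 ± 0.360 to 6.83 ± 0.353 FPKM (SD, n = 3 each), a call lost with median ratio scaling (adjusted p = 0.0803). VPS26A read 9.16, 15.7 and 8.30 FPKM against 11.2, 18.1 and 12.7 FPKM. Library 2 was the highest for VPS26A in both groups, the groups overlapped and no call was made (adjusted p = 0.279), while without control library 2 it was higher by 0.60 on the log2 scale (adjusted p = 0.0419).

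Of the 8 genes grouped as HOPS and CORVET, 3 rose (37.5%) and 2 fell (25%), against 26.8% and 51.8% of all genes. Those that fell were VPS8 and VPS33B, and VPS33B was counted here although it acts in a separate complex. The shared core subunits VPS18, VPS16 and VPS11 were the ones that rose. VPS18 read 4.73, 4.82 and 5.08 FPKM in the control and 9.98, 8.66 and 9.61 FPKM in the shSETD2 libraries (log2 fold change 0.82, SE 0.06, adjusted p = 3.31e-05). VPS16 rose by 0.65 and VPS11 by 0.29 on the log2 scale. VPS33A, the SM protein of that core, was at 5.33 ± 0.552 and 4.86 ± 0.646 FPKM (SD, n = 3 each) with overlapping groups. The subunits particular to one complex, VPS39 and VPS41 of HOPS, were not called (adjusted p = 0.121 and 0.0565). VPS39 was lower by call without control library 3 (-0.41, adjusted p = 0.00500) and VPS41 without shSETD2 library 2 (-0.26, adjusted p = 0.00620). VPS8 of CORVET fell by 0.28 with the deposited values, and with median ratio scaling its log2 fold change was -0.0014 (adjusted p = 0.982). VPS33B, which pairs with VIPAS39 in a separate complex, fell from 4.41 ± 0.174 to 2.41 ± 0.144 FPKM (SD, n = 3 each). Of the exon bases of VPS33B, 55.7% are shared with another protein-coding gene on the same strand, so fragments of these genes may be mixed.

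Of 5 GARP and EARP subunits, 3 rose (60%) and 1 fell (20%), against 26.8% and 51.8% of all genes. VPS52, VPS53 and VPS51, which both complexes share, rose by 0.32, 0.27 and 0.26 on the log2 scale. The call of VPS52 was lost without control library 2 (adjusted p = 0.0526), and that of VPS51 without control library 2, control library 3 or shSETD2 library 3 (adjusted p from 0.0505 to 0.0713). VPS54, which is particular to GARP, fell from 10.1, 11.3 and 10.7 to 7.01, 7.80 and 6.88 FPKM (log2 fold change -0.51, SE 0.07, adjusted p = 3.99e-04). VPS50, which takes its place in EARP, was at 2.69 ± 0.0766 and 2.82 ± 0.235 FPKM (SD, n = 3 each), without a call, but was called higher with quantile (adjusted p = 0.00180) and median ratio scaling (adjusted p = 0.00399). The VPS13 proteins are lipid transfer bridges between organelles, and all 4 genes were called, as were 78.6% of all genes. VPS13A read 11.7, 12.8 and 11.3 FPKM in the control and 4.06, 4.63 and 3.98 FPKM in the shSETD2 libraries (-1.31, SE 0.07, adjusted p = 6.74e-06), the lowest log2 fold change of the VPS family. VPS13B and VPS13D rose by 0.23 and 0.18 on the log2 scale, and VPS13C fell by 0.32, a call lost with median ratio scaling (adjusted p = 0.954). VPS45, an SM protein of endosomal fusion, fell from 6.57 ± 0.661 to 2.87 ± 0.0458 FPKM (SD, n = 3 each). VPS72, a subunit of chromatin remodelling complexes that shares only the name, fell by 0.66 on the log2 scale, but not with median ratio scaling (adjusted p = 0.102).

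The ESCRT genes did not all move one way. None of the 11 CHMP genes of ESCRT-III fell, both VPS4 genes rose, and both VPS genes of ESCRT-II fell. Among all genes tested 26.8% rose and 51.8% fell. CHMP4C, an ESCRT-III subunit of the abscission checkpoint, had the widest change. It read 2.31, 2.27 and 1.81 FPKM in the control and 12.2, 13.4 and 13.4 FPKM in the shSETD2 libraries, a ratio of 6.11 (log2 fold change 2.17, SE 0.08, adjusted p = 1.23e-06). CHMP1A, a late subunit that helps to recruit VPS4, read 10.8, 9.08 and 7.52 FPKM against 28.5, 43.1 and 46.1 FPKM, a ratio of 4.30 (1.97, SE 0.20, adjusted p = 1.33e-04). CHMP4B, the main filament subunit and the most abundant CHMP gene in both groups, read 29.4, 32.6 and 31.6 FPKM against 65.5, 63.8 and 65.7 FPKM (1.04, SE 0.05, adjusted p = 2.51e-06). In each of these genes the groups were far apart relative to their spread. CHMP3 rose from 5.13 ± 0.409 to 11.6 ± 0.353 FPKM and CHMP1B from 9.89 ± 0.537 to 18.0 ± 1.14 FPKM (SD, n = 3 each). CHMP7, which also acts in resealing the nuclear envelope, rose by 0.35 on the log2 scale. CHMP5 rose by 0.29 with groups that nearly touched, at most 22.2 FPKM in the control and at least 22.3 FPKM in the shSETD2 libraries, and its call was lost without control library 1 or 2 or shSETD2 library 1 or 3 (adjusted p from 0.0618 to 0.103) and under quantile normalization (adjusted p = 0.288). CHMP2A, CHMP4A and CHMP6 were not called (adjusted p = 0.383, 0.494 and 0.168). With median ratio scaling all 3 were called higher (adjusted p = 0.0204, 0.0423 and 7.62e-04), which gave 10 of the 11 CHMP genes higher, and with quantile normalization CHMP4A and CHMP6 were (adjusted p = 0.0340 and 0.0230). For CHMP4A, 69.2% of the exon bases are shared with a noncoding gene on the same strand. CHMP2B read 10.6, 22.3 and 7.76 FPKM in the control and 6.67, 9.69 and 8.82 FPKM in the shSETD2 libraries, with control library 2 far above the rest and no call (-0.52, SE 0.36, adjusted p = 0.222).

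VPS4 is the ATPase that takes ESCRT-III filaments apart. VPS4B read 5.94, 6.47 and 6.31 FPKM in the control and 21.1, 25.1 and 21.2 FPKM in the shSETD2 libraries, a ratio of 3.60 (log2 fold change 1.69, SE 0.08, adjusted p = 2.76e-06). VPS4A moved little, from 17.2 ± 0.828 to 19.2 ± 0.599 FPKM (SD, n = 3 each), and its call was lost without control library 1 or 3 or shSETD2 library 1 or 3 (adjusted p from 0.0555 to 0.0807) and under quantile normalization (adjusted p = 0.398). Of the exon bases of VPS4A, 30.5% lie opposite COG8. In ESCRT-I, which binds ubiquitinated cargo, VPS28 read 4.52, 4.87 and 4.48 FPKM against 13.3, 11.9 and 13.9 FPKM (1.32, SE 0.07, adjusted p = 5.06e-06). VPS37B rose from 5.31 ± 0.116 to 10.9 ± 0.336 FPKM (SD, n = 3 each). The other VPS37 genes, VPS37A, VPS37C and VPS37D, were not called (adjusted p = 0.544, 0.135 and 0.908), although VPS37D was called higher with quantile normalization (adjusted p = 0.0290). In ESCRT-II, the bridge to ESCRT-III, VPS25 read 22.1, 24.9 and 22.1 FPKM in the control and 14.8, 14.8 and 15.2 FPKM in the shSETD2 libraries (-0.59, SE 0.06, adjusted p = 9.5e-05). VPS36 fell from 12.8, 7.18 and 15.0 to 6.01, 6.17 and 4.16 FPKM (-0.93, SE 0.27, adjusted p = 0.0170). That call of VPS36 was lost without control library 1, control library 3 or shSETD2 library 3 (adjusted p from 0.0514 to 0.0581) and with median ratio scaling (adjusted p = 0.0723).

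**Figure D5:**
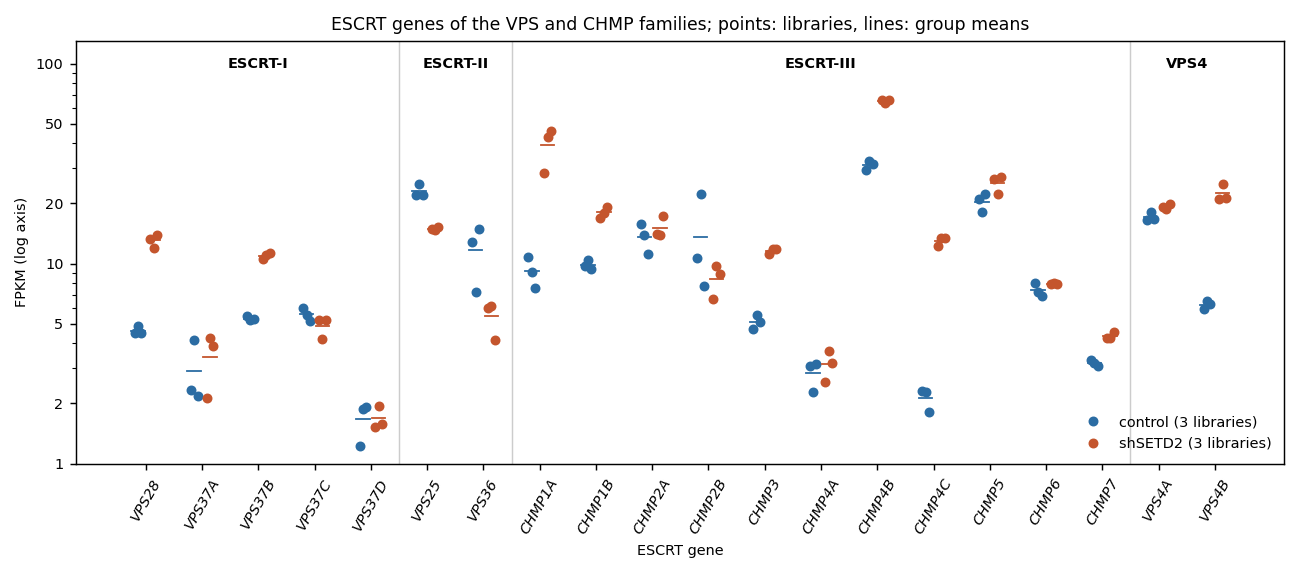
FPKM (log axis) of the 20 ESCRT genes among the VPS and CHMP families in each of the 3 control (blue) and 3 shSETD2 (orange) libraries, with a line at each group mean, ordered by complex. ESCRT-III and VPS4 genes lie higher in the shSETD2 libraries or overlap, and both ESCRT-II genes lie lower.

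The 11 sorting nexins with a BAR domain that were tested were all called, 4 higher (36.4%) and 7 lower (63.6%), against 26.8% and 51.8% of all genes. SNX9, which remodels membrane during clathrin-mediated uptake, read 14.8, 15.0 and 14.3 FPKM in the control and 47.3, 48.2 and 47.1 FPKM in the shSETD2 libraries (log2 fold change 1.63, SE 0.04, adjusted p = 1.42e-07). SNX8, of endosome to Golgi traffic, read 3.25, 3.27 and 2.97 FPKM against 11.6, 10.6 and 12.4 FPKM (1.59, SE 0.07, adjusted p = 2.4e-06). SNX18 and SNX33 are the closest relatives of SNX9. SNX18 fell from 6.14 ± 0.226 to 3.78 ± 0.150 FPKM (SD, n = 3 each). SNX33 fell by 0.22 on the log2 scale with the deposited values but lay at 0.05 with median ratio and 0.04 with quantile scaling, and its call was lost without any one of control libraries 1, 2 and 3 or of shSETD2 libraries 1 and 2 (adjusted p from 0.0557 to 0.127). SNX1, SNX2, SNX5 and SNX6 form the membrane-bending dimers of the retromer pathway, in which SNX1 or SNX2 pairs with SNX5 or SNX6. SNX5 read 26.7, 27.3 and 27.5 FPKM in the control and 15.3, 17.6 and 14.6 FPKM in the shSETD2 libraries (-0.75, SE 0.07, adjusted p = 8.87e-05). SNX6 rose from 18.2 ± 1.42 to 23.9 ± 2.11 FPKM and SNX2 fell from 13.8 ± 0.865 to 9.52 ± 0.355 FPKM (SD, n = 3 each). SNX1 fell by 0.22 on the log2 scale with the deposited values but lay at 0.09 with median ratio scaling. In control libraries SNX5 was thus the more abundant of the SNX5 and SNX6 pair and in shSETD2 libraries SNX6 was. SNX4, of recycling to the surface, fell from 14.8, 14.9 and 16.5 to 8.02, 8.65 and 8.26 FPKM (-0.81, SE 0.06, adjusted p = 2.21e-05). SNX7 and SNX30 are partners of SNX4 in its dimers. SNX7 rose from 13.9 ± 0.787 to 27.2 ± 3.10 FPKM and SNX30 fell from 6.35 ± 0.313 to 3.36 ± 0.112 FPKM (SD, n = 3 each).

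Of 9 sorting nexins tested without a BAR, FERM or RGS homology domain, 3 rose (33.3%), 0 fell and 6 were not called. Of all genes tested, 26.8% rose and 51.8% fell. SNX3, which guides the retromer to WNTLESS, was the most abundant SNX gene in the shSETD2 libraries. It read 26.6, 25.0 and 23.4 FPKM in the control and 48.4, 52.1 and 48.9 FPKM in the shSETD2 libraries (log2 fold change 0.97, SE 0.06, adjusted p = 9.07e-06). SNX29 rose from 2.64 ± 0.0520 to 8.62 ± 0.165 FPKM and SNX21 from 2.75 ± 0.247 to 8.29 ± 0.791 FPKM (SD, n = 3 each). Of the exon bases of SNX21, 36.5% lie opposite ACOT8, and whether fragments were counted by strand is not given. Among the SNX genes with a FERM domain, which bind sorting motifs of receptors, SNX27 fell by 0.62 and SNX17 rose by 0.18 on the log2 scale. The call of SNX27 was lost with median ratio scaling (adjusted p = 0.135) and that of SNX17 without control library 2 or 3 or shSETD2 library 1 (adjusted p from 0.0733 to 0.0923). Of 4 SNX genes with an RGS homology domain, SNX14, which tethers lipid droplets to the endoplasmic reticulum, rose by 0.71 and SNX19 by 0.44 on the log2 scale. SNX25 fell by 0.65 and SNX13 by 0.34, but SNX13 was not called with median ratio scaling (adjusted p = 0.567) or without control library 3 or shSETD2 library 1 or 3 (adjusted p from 0.0509 to 0.0559).

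The members were spread over 22 chromosomes, with at most 12 on 1 of them. Chromosome 20 holds 5, of which RAB22A, VPS16, SNX21 and CHMP4B rose and SNX5 fell, with a median log2 fold change of 1.04 against 0.40 for all its genes tested. Of all its genes tested, 57.3% were called higher. Chromosomes 4, 5 and X, with 3, 4 and 5 members, each had 3 members lower and 0 higher, and the medians of all genes tested there were -0.65, -0.18 and -0.54. Of all genes tested on these chromosomes, 16.9%, 32.5% and 22.1% were called higher. Over all chromosomes 51.8% of genes were called lower. On chromosome 4 the lower members were RAB33B, RAB28 and SNX25, on chromosome 5 RAB24, SNX18 and SNX2, and on chromosome X RAB39B, RAB9A and RAB9B. Chromosome 6 had 5 of 6 members higher and 0 lower, with a median of -0.41 for all its genes, of which 24.8% were called higher. Chromosomes 8, 12 and 16, with 7, 6 and 6 members, each had 4 higher and 0 lower. The medians of all genes tested there were -0.19, -0.13 and -0.03, and 30.5%, 32.0% and 33.7% of them were called higher.

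Libraries of a group differed little for most members. Among those with a mean of at least 1 FPKM in the group, the highest control library was on median 1.14 times the lowest, as for all genes, and in the shSETD2 libraries 1.16 times. A range beyond a ratio of 2 was seen for 6 of 114 members in the control libraries (5.26%, against 4.60% of all genes) and 2 of 116 in the shSETD2 libraries (1.72%, against 3.25%). Library 2 was the highest of its group for 52 of the 114 members in the control and 56 of the 116 in the shSETD2 libraries, against 26 to 34 members for each other library. SNX15, not called, was another such case, at 2.24, 3.33 and 0.555 FPKM in the control libraries.

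The proteins that load, switch and read the RAB GTPases, and the partners of the VPS and CHMP complexes, were taken from a list of 131 genes. Of these, 127 were tested, of which 50 rose and 51 fell, with a median log2 fold change of -0.06. That is 39.4% higher and 40.2% lower, against 26.8% and 51.8% of all genes. Median ratio scaling gave 66 partners higher and 28 lower. On the log2(FPKM + 1) scale, the 2 largest rises were of RIN2, an exchange factor of RAB5, from 1.13 ± 0.0855 to 19.8 ± 0.612 FPKM (SD, n = 3 each, 3.29, SE 0.05, adjusted p = 4.72e-08), and of TBC1D2, a GTPase-activating protein of RAB7, from 1.19, 1.14 and 1.20 to 12.5, 10.2 and 11.7 FPKM (2.51, SE 0.08, adjusted p = 5.47e-07). By ratio of group means RIN1, another exchange factor of RAB5, rose most, from 0.0657 to 4.58 FPKM, and it passed the minimum through the shSETD2 libraries alone. On the log2 scale the largest falls were of TBC1D4, which holds RAB10 inactive until insulin signals, from 21.9, 22.3 and 22.6 to 4.26, 4.18 and 4.55 FPKM (-2.13, SE 0.05, adjusted p = 1.28e-07), and of MYO5C, a myosin that carries secretory granules, from 2.69, 2.46 and 2.55 to 0.0552, 0.0630 and 0.0646 FPKM (-1.75, SE 0.05, adjusted p = 5.1e-07). MYO5C passed the minimum through the control libraries alone, so it had to differ. Exchange factors were divided evenly, with 9 of 20 higher and 9 lower. Of 16 GTPase-activating proteins 6 rose and 8 fell, and of 27 RAB effectors 12 rose and 11 fell. Among the effectors, RAB11FIP4, RAB11FIP1 and RAB11FIP2, which bind RAB11, fell by 1.55, 1.18 and 1.00 on the log2 scale, RAB11FIP5 rose by 0.57 and RAB11FIP3 was not called. Of 12 ESCRT subunits of other names, 4 rose and 5 fell. The HGS subunit of ESCRT-0 rose by 0.55, the ESCRT-II subunit SNF8 fell by 0.26 with the deposited values but lay at 0.05 with median ratio scaling, and TSG101 of ESCRT-I was not called (adjusted p = 0.169). Of 20 partners of the retromer and of the WASH and COMMD complexes, 9 rose and 4 fell, with WASHC5 higher by 1.12 and WASHC4 by 0.93 on the log2 scale. Of 16 endosomal SNAREs and their partners 4 rose (25%) and 8 fell (50%), near the shares of all genes. Of 8 genes of RAB prenylation and delivery 2 rose and 4 fell, and RABGGTB, the catalytic subunit of RAB geranylgeranyl transferase, went from 25.2, 24.2 and 26.1 to 7.34, 7.53 and 6.66 FPKM (-1.68, SE 0.06, adjusted p = 8e-07). Of 8 phosphoinositide enzymes of endosomes 4 rose and 2 fell. Genes named here beyond RIN2, TBC1D2, TBC1D4 and MYO5C were chosen after their values were seen.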

How the data were processed

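RNA-seq was analysed for 6 libraries of H1650 cells, 3 control and 3 shSETD2, grouped by their labels. Reads were aligned to hg19 with HISAT2, per the submitters' processing notes, and the authors used Ballgown to obtain the FPKM values deposited per gene and library. Tool versions and the filter behind the 15897 listed genes are not given in the sources used here. A second table, with the authors' group means, fold changes and p and q values, was not used. Low FPKM values did not fall on the steps of whole reads, so depth and counting error are unknown and precision rests on the spread over 3 libraries. FPKM sums were 218769 to 224603.

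Genes with a mean of at least 0.5 FPKM (14068) were tested on log2(FPKM + 1) with limma 3.58.1 in R 4.3.3 (lmFit, eBayes with trend, two-sided), with Benjamini-Hochberg adjustment over all genes and a threshold of 0.05. The fit was tested on simulated data. Figures and sums used Python 3.11.15. Exons came from the GRCh37 annotation, in which all 125 members were matched. The members, their roles and the list of partners were chosen with earlier results of these data known. Named genes were the largest called changes without overlap in each family, the 2 most abundant members of each, genes near 0 in only 1 group, paralog sets with a share moving by 20 points, the subunits of the complexes, and the 2 largest changes each way among partners. Others were named after their values were seen, to complete a role. A further marker list is not reported here. Of 131 partners, 129 were used, 3 of them matched by an older symbol or identifier, and RABGEF1, listed under 2 identifiers, was left out. Alternatives changed the pseudocount, filter, scaling, model, replicate block and the libraries left out.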

Additional observations from a re-analysis of the deposited data

How the results depend on the processing

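The 125 genes tested or named here are the members tested and the 4 named partners. Of these, 73 kept their direction and their side of the threshold under every one of the 16 alternatives that tested them. The alternative with a minimum of 5 FPKM tested only 82 of the 125 genes. Counting of the members by family depended on scaling and on the filter. With a mean of at least 5 FPKM as the minimum, only 79 members and 80 partners remained. Lower calls then covered 18 of the 79 members, with 6 of RAB and 5 of SNX, in place of 34 of 121. Higher calls covered 44 of the 79, in place of 53 of 121. For the partners, 31 of the 80 had higher calls, in place of 50 of 127. How far the smaller number of genes accounts for these counts was not tested. With median ratio scaling, 22 members were lower, with 5 of VPS and 6 of SNX, and 28 partners were lower. The differences between group sums grew to 277.5 FPKM for RAB, 93.8 for VPS, 129.6 for SNX and 133.4 for CHMP. The median of all genes moved from -0.29 to -0.11 with quantile normalization and to -0.01 with median ratio scaling. With quantile normalization, 57 members were higher and 31 lower, and 60 partners higher and 38 lower.

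Median ratio scaling turned the sign of 18 members that were below 0 as deposited, to log2 fold changes of 0.23 for RAB2A, 0.038 for RAB2B, 0.10 for RAB6B, 0.12 for RAB21, 0.28 for RAB10, 0.070 for RAB12, 0.11 for RAB23, 0.19 for RAB8A, 0.27 for RAB29, 0.27 for RAB40C, 0.13 for VPS37C, 0.18 for VPS33A, 0.039 for VPS39, 0.12 for VPS41, 0.18 for SNX11, 0.28 for SNX12, 0.089 for SNX1 and 0.051 for SNX33. Only RAB2B, RAB12, SNX1 and SNX33 of these had been called. Quantile normalization turned RAB21 to 0.037, RAB29 to 0.087, RAB40C to 0.18, VPS33A to 0.051, SNX11 to 0.044 and SNX33 to 0.043. The cause of the changes by scaling was not tested. Leaving out single libraries turned the sign only of members without a call. Their log2 fold changes ran from -0.19 to 0.017 for RAB2A, -0.084 to 0.87 for RAB43, -0.39 to 0.060 for RAB8A, -0.13 to 0.090 for RAB29, -0.076 to 0.039 for RAB40C, -0.11 to 0.084 for VPS37D, -0.0016 to 0.078 for VPS50, -0.31 to 0.097 for SNX12 and -0.0050 to 0.21 for CHMP4A.

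SETD2 passed the threshold without control library 2 (-0.83, adjusted p = 0.00666) and without shSETD2 library 3 (-0.73, adjusted p = 0.0420). Without any other single library it did not pass (adjusted p from 0.149 to 0.181). It did not pass with median ratio scaling either (-0.25, adjusted p = 0.377), nor in an ordinary linear model per gene (adjusted p = 0.149). Left out one at a time, the libraries gave log2 fold changes of SETD2 from -0.83 to -0.45. Whether the replicate numbers pair the libraries is not given. Deviations from the group means of same-numbered libraries had correlations of -0.024, 0.018 and -0.0077. Those of libraries with unlike numbers ran from -0.055 to 0.063. With 3 libraries per group these values cannot decide whether the numbers mark pairs. With the replicate number as a block, SETD2 passed (-0.58, adjusted p = 0.0156), 53 members were higher and 36 lower, 119 of the 125 genes kept their call, and 0 changed direction.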
